A study of Macaca mulatta with 4 samples.

Results

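The genes described here are tau, the kinases best known for phosphorylating it, and related proteins that bind microtubules: MAPT, GSK3A, GSK3B, CDK5, CDK5R1, MAP1A, MAP1B, MAP2, MAP4 and STMN2. They were chosen by symbol, and all 10 were found among the 33618 genes of the table of read counts. All 10 passed the filter on low counts and were among the 17693 genes tested. RNA was sequenced from brain, per the protocol prefrontal cortex, of wild type rhesus macaques (Macaca mulatta), with 2 control libraries (replicates 2 and 3, agent given as none) and 2 sevoflurane libraries (replicates 2 and 3). Sevoflurane, an inhaled anaesthetic, was given at roughly 2.5 to 3% for 4 hours on 3 occasions, the first near postnatal day 7 and the later ones 14 and 28 days after, and cortex was taken straight after the last. The labels do not say what the controls breathed or how they were handled, the age and sex of each animal, or whether the replicates came from separate animals. A p-value here thus reflects the scatter among these 4 libraries alone, and that scatter may be technical.

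Tau binds along microtubules, mainly in axons, and lets go of them when it is phosphorylated at many sites. Glycogen synthase kinase 3, in its alpha and beta forms, and cyclin-dependent kinase 5 are major tau kinases, and the latter is active in neurons once bound to p35, the product of CDK5R1. Work in young rodents has linked sevoflurane to tau phosphorylation, and the comparison asks whether the messages of these genes differed after exposure of infant macaques. The counts measure mRNA. The phosphorylation of tau and the activity of the kinases were not measured.

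None of the 10 genes was called different after sevoflurane by edgeR at an adjusted p under 0.05 over all genes tested. Across all 17693 genes, 0.599% were called, 0.0622% higher and 0.537% lower. At an unadjusted p under 0.05 there was 1 of the 10, MAP4, against 9.92% of all genes. DESeq2, limma-voom and edgeR's likelihood ratio test also called 0 of the 10. Fold changes of the 10 genes lay between -0.12 and 0.35 on the log2 scale, with 8 above 0 and 2 below, a median of 0.07 and a median size of 0.10. The corresponding values over all tested genes were a median of -0.0021 and a median size of 0.21. Over the 6009 tested genes at least as abundant as MAPT, the median size was 0.13. The widest of the 95% intervals ran from -0.43 to 0.55 (MAPT) and the narrowest from -0.05 to 0.39 (MAP2), so a change of 2-fold in either direction lay outside the interval of each of the 10 genes. Each interval but that of MAP4 held 0.

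**Figure D1:**
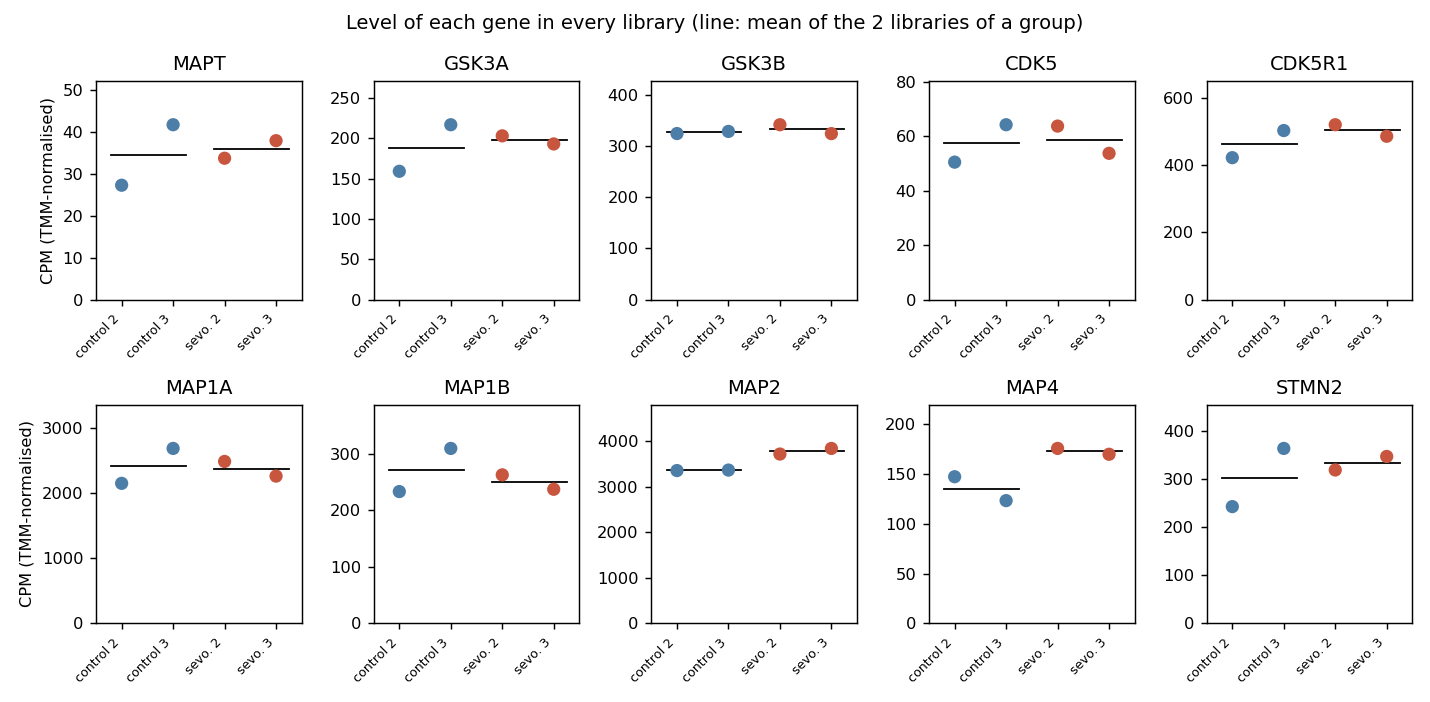
Level of each of the 10 genes in every library, in CPM after TMM normalisation (y axis from 0, own scale per gene); each point is 1 library (blue control, red sevoflurane) and each line the mean of the 2 libraries of a group. Both sevoflurane points lie above both control points only for MAP2 and MAP4.

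Levels below are CPM, read counts scaled to a common library size by TMM (trimmed mean of M values). Pairs of values give replicate 2 first and replicate 3 second. Levels are compared between libraries for 1 gene at a time and not between genes, since transcript lengths were not used. MAPT, the gene of tau, had 279 and 314 reads in the controls and 394 and 446 after sevoflurane. The annotation behind the counts is not known, so how fully these reads cover the MAPT message is not known either, and its level may be understated. In CPM these were 27.2 and 41.6 in the controls and 33.7 and 37.8 after sevoflurane. The sevoflurane libraries thus lay between the control libraries, which were 1.53-fold apart. Means were 34.4 ± 10.2 CPM in controls and 35.8 ± 2.96 CPM after sevoflurane (SD, n = 2 per group). The log2 fold change was 0.06 (SE 0.22, adjusted p = 0.959), with a 95% interval in fold terms of 0.741 to 1.47. Leaving out control replicate 2 gave -0.22 and leaving out control replicate 3 gave 0.39, so its sign rested on which control library was kept. It was also below 0 (-0.03) without sevoflurane replicate 3.

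Among the kinases, GSK3B varied least between libraries. It had 324 and 328 CPM in the controls and 341 and 324 CPM after sevoflurane. All 4 values lay within 0.08 of each other on the log2 scale. The log2 fold change was 0.03 (SE 0.11, adjusted p = 0.964), and its 95% interval was 0.854-fold to 1.22-fold. GSK3A, the alpha form, had 159 and 217 CPM in the controls and 203 and 193 CPM after sevoflurane, again with the exposed libraries between the controls. Its log2 fold change was 0.08 (SE 0.16, adjusted p = 0.928), and its 95% interval was 0.825-fold to 1.35-fold. Relative to GSK3B reads in the same library, GSK3A reads were lowest in control replicate 2 and highest in control replicate 3, at -0.25 and 0.18 around the mean log2 ratio of the 4 libraries. In the sevoflurane libraries both ratios were 0.03.

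CDK5, the catalytic subunit, had 50.5 and 64.3 CPM in the controls and 63.8 and 53.8 CPM after sevoflurane. The groups overlapped, with means of 57.4 ± 9.73 and 58.8 ± 7.09 CPM (SD, n = 2 per group). Its log2 fold change was 0.04 (SE 0.17, adjusted p = 0.968; 95% interval 0.781-fold to 1.35-fold). CDK5R1, whose product p35 activates CDK5, had 421 and 502 CPM in the controls and 519 and 485 CPM after sevoflurane. Control replicate 2 was the low library, and the other 3 lay together. The log2 fold change was 0.12 (SE 0.13, adjusted p = 0.831; 95% interval 0.894-fold to 1.32-fold). The ratio of CDK5R1 to CDK5 reads differed by 0.09 (log2) between the group means, and the groups overlapped.

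MAP2, a microtubule-associated protein of dendrites, was 1 of the 2 genes with both sevoflurane libraries above both controls, an arrangement found in 20.8% of all tested genes. None of the 10 had both sevoflurane libraries below both controls, as 20.4% of all tested genes had, so 2 of the 10 had groups that did not overlap, against 41.2% of all. It had 3356 and 3367 CPM in the controls and 3719 and 3842 CPM after sevoflurane. Means were 3361 ± 7.60 and 3781 ± 87.4 CPM (SD, n = 2 per group). Its log2 fold change was 0.17 (SE 0.10, adjusted p = 0.641; 95% interval 0.967-fold to 1.31-fold). With 1 library left out it stayed between 0.15 and 0.19. When libraries were scaled to the summed counts of general neuron markers in place of TMM, it was 0.09.

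MAP4, a microtubule-associated protein made in most cell types, was the other. It had 147 and 123 CPM in the controls and 176 and 170 CPM after sevoflurane. Group means were 135 ± 17.0 and 173 ± 4.15 CPM (SD, n = 2 per group). Its log2 fold change of 0.35 (SE 0.13) had the smallest p of the 10, at 0.0272 before and 0.411 after adjustment by edgeR, and 1170 of the 17693 genes had a smaller one. The 95% interval was 1.03-fold to 1.57-fold before any allowance for the number of genes tested. Leaving out control replicate 3 gave 0.23, leaving out control replicate 2 gave 0.49 (adjusted p = 0.0795), and scaling to neuron markers gave 0.25. Markers of meningeal fibroblasts, cells of the covering of the brain, had mean log2 deviations of -0.06 and -1.25 in the controls. After sevoflurane they had 1.22 and 0.09, the same order of libraries as for MAP4. This list includes genes with few control reads, such as SLC13A4 (126 and 4). None of the other marker lists had this order. Astrocyte markers had 0.21 and 0.09 in the controls and -0.17 and -0.12 after sevoflurane. Oligodendrocyte precursor markers had 0.30 and 0.17 in the controls and -0.34 and -0.13 after sevoflurane. The summed level of all 10 fibroblast markers was 333 and 197 CPM in the controls and 734 and 301 CPM in the sevoflurane libraries, and none of the 10 was listed at 0. By summed level, control replicate 2 lay above sevoflurane replicate 3, so this order differed from that of MAP4. Of the 10 fibroblast markers, edgeR called 1 higher and 0 lower. The part of any of these cell types in the MAP4 values was not tested.

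MAP1A and MAP1B encode large microtubule-associated proteins, of which MAP1B is prominent in growing axons and MAP1A in more mature neurons. MAP1A had 2149 and 2685 CPM in the controls and 2485 and 2260 CPM after sevoflurane. Its log2 fold change was -0.03 (SE 0.13, adjusted p = 0.969; 95% interval 0.804-fold to 1.20-fold). MAP1B had 234 and 310 CPM in the controls and 263 and 238 CPM in the sevoflurane libraries, the latter again between the controls. The log2 fold change of -0.12 (SE 0.15, adjusted p = 0.876; 95% interval 0.727-fold to 1.17-fold) was the lowest of the 10. Both genes had the opposite sign without control replicate 3, at 0.14 for MAP1A and 0.10 for MAP1B. The ratio of MAP1B to MAP1A reads differed by -0.09 (log2, sevoflurane minus control) between the group means. Its groups did not overlap, at -0.0005 and 0.09 in the controls and -0.04 and -0.05 after sevoflurane. The ratio of MAP2 to MAP4 reads (-0.19) did not overlap either, while those of MAPT and STMN2 to MAP2 did. The share among other gene pairs was not computed, and 41.2% of single genes tested had groups that did not overlap.

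STMN2 encodes a neuronal stathmin that binds tubulin and loosens microtubules in growing axons. It had 242 and 363 CPM in the controls and 319 and 347 CPM after sevoflurane. As with MAPT, the exposed libraries lay between controls that were far apart, as the plot of levels shows. The log2 fold change was 0.14 (SE 0.18, adjusted p = 0.878; 95% interval 0.832-fold to 1.45-fold). Leaving out control replicate 2 gave -0.13, and leaving out control replicate 3 gave 0.46 (adjusted p = 0.106).

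**Figure D2:**
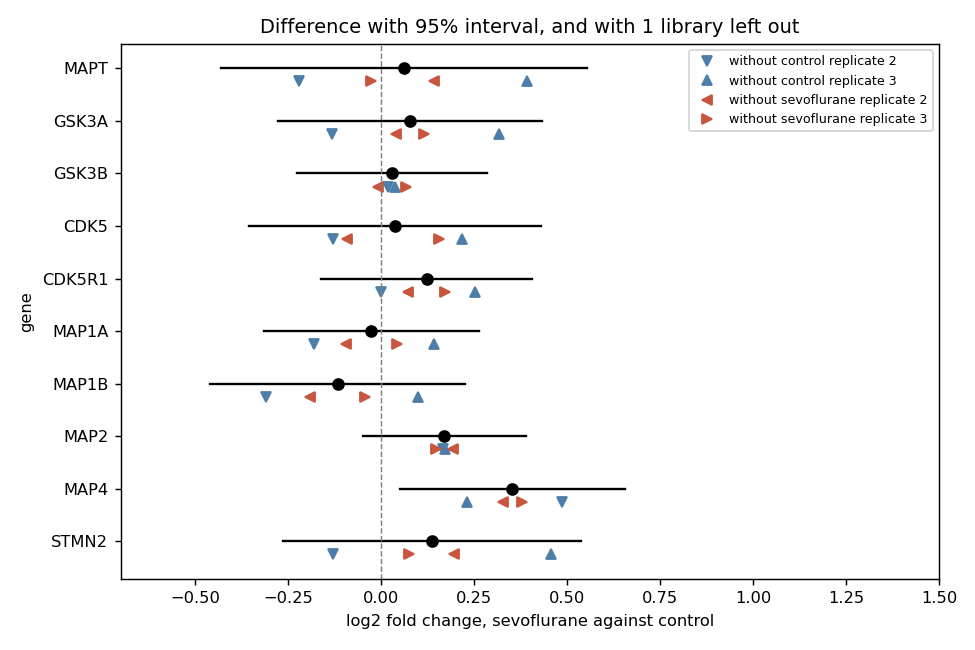
Log2 fold change of each gene, sevoflurane against control (x axis), with its 95% interval from edgeR (black) and the value with each library left out in turn (triangles, blue for a control and red for a sevoflurane library). Leaving out control replicate 2 or 3 moves MAPT from 0.06 to -0.22 or 0.39, whereas MAP2 stays between 0.15 and 0.19.

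All 10 genes were below their own mean of the 4 libraries in control replicate 2, and 8 were lowest there, while 24.8% of all tested genes had their lowest value in that library. In control replicate 3, 7 of the 10 were above their mean and 6 were at their highest. Of all tested genes, 31.0% were highest in that library and 31.7% were lowest there. Mean deviations of the 10 genes were -0.18 and 0.09 in the controls and 0.07 and 0.02 after sevoflurane (log2). General neuron markers, a list of 15 genes such as RBFOX3, SNAP25 and SYT1, all of them tested, had -0.29 and 0.22 in the controls and 0.05 and 0.02 after sevoflurane. Of these 15, 13 were lowest in control replicate 2, 0 were called by edgeR, and none was listed at 0. Their summed level was 7757 and 10954 CPM in the controls and 9843 and 9366 CPM in the sevoflurane libraries. In bulk cortex, fewer cells of a type and less RNA per cell cannot be told apart, and the part of the neuron markers in the values of the 10 genes was not tested. MAP4, MAP2 and GSK3B did not share the high value in control replicate 3. MAP4 was lowest there, at -0.31, MAP2 had -0.09 and -0.08 in the controls, and GSK3B was almost level.

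**Figure D3:**
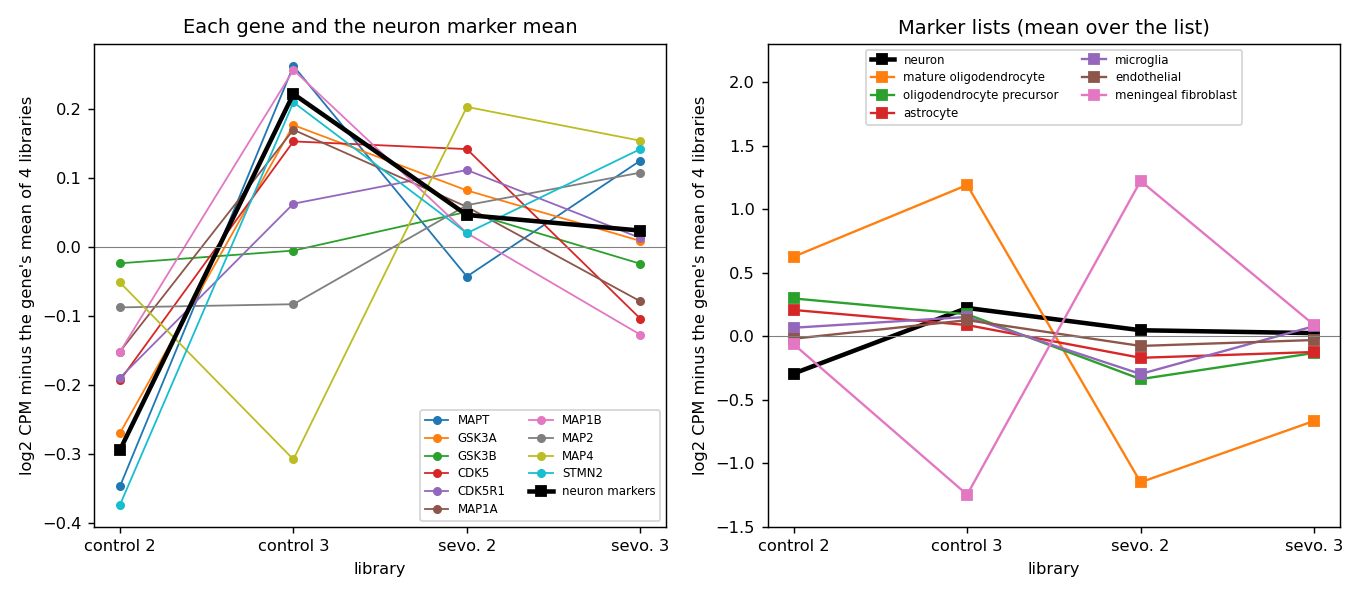
Deviation of log2 CPM from the gene's mean of the 4 libraries (y axis) by library (x axis). The left panel shows each of the 10 genes and the mean of 15 neuron markers. The right panel shows the neuron markers again, with the marker lists of other cell types. Lines only join the values of 1 gene or list. In control replicate 2 all 10 genes and the neuron markers are below their mean, though GSK3B by only 0.02. MAP4 is lowest in control replicate 3, and GSK3B in sevoflurane replicate 3.

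Mature oligodendrocytes also contain tau and MAP1B, and their markers differed strongly between the groups. The summed level of 15 such markers was 9461 and 14935 CPM in the controls and 2471 and 3685 CPM after sevoflurane. Of these, 13 were called lower, none was listed at 0, and the median log2 fold change was -1.90. MAPT had 0.06 and MAP1B -0.12 in the same libraries, and the part of oligodendrocytes in these values was not tested. Control replicate 3 was the highest library for the oligodendrocyte markers, for MAPT and MAP1B, and also for the general neuron markers. As log2 deviations, control replicate 2 was the lowest for MAPT (-0.35), MAP1B (-0.15) and the neuron markers (-0.29). In that library the oligodendrocyte markers had a mean log2 deviation of 0.63, against -1.15 and -0.67 after sevoflurane. TPPP, a tubulin-polymerising protein abundant in oligodendrocytes and chosen here after its value was seen, had -0.18 (SE 0.13, adjusted p = 0.739).

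Over the 4 libraries, STMN2 and MARK4 were among the genes whose pattern was closest to that of MAPT, of 145 genes of the lists used here. The distances between their log2 deviations and those of MAPT were 0.088 and 0.15. MARK4 is a kinase that phosphorylates tau in its microtubule-binding repeats. It had 134 and 188 CPM in the controls, and 176 and 184 CPM after sevoflurane. With 4 points that share library scaling, this is a description only. The gene farthest from MAPT was FKBP5, at 2.33.

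Other genes of tau biology and microtubule binding were taken from 6 lists of 141 genes in all, of which 137 were found and 136 tested. By edgeR 1 of the 136 was called, FKBP5, and 13 (9.56%) had an unadjusted p under 0.05, against 9.92% of all tested genes. Of 25 further tau kinases 0 were called (2 at an unadjusted p under 0.05, and 0 by DESeq2 or limma-voom), and the median was 0.02. MARK1, which phosphorylates tau in its repeats, was highest at 0.19 (SE 0.13, adjusted p = 0.72), with both sevoflurane libraries above both controls. PRKACB, a catalytic subunit of protein kinase A, was lowest at -0.31 (SE 0.53, adjusted p = 0.913) from a mean of 2.21 CPM in controls. Of 22 regulators of GSK3 and CDK5 0 were called (2 at an unadjusted p under 0.05, and 0 by DESeq2 or limma-voom), with a median of 0.06. FRAT1, an inhibitor of GSK3, had 1.27 and 0.398 CPM in the controls and 1.62 and 2.38 CPM after sevoflurane (1.20, SE 0.70, adjusted p = 0.649). These values rest on 13 and 3 reads in the controls and 19 and 28 after sevoflurane. FRAT1 thus passed the filter on low counts with the help of the group where it was higher, and its rank in the list is no result. CDK5RAP2, a centrosomal protein, was lowest at -0.45 (SE 0.20, adjusted p = 0.504).

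Of 23 genes of tau phosphatases 0 were called (1 at an unadjusted p under 0.05, and 0 by DESeq2 or limma-voom). The list had a median of 0.06, with 16 values above 0 and 7 below. PPP3CB, a catalytic subunit of calcineurin, had 164 and 188 CPM in the controls and 219 and 229 CPM after sevoflurane. All of its exposed values were above the controls, and the difference of 0.35 (SE 0.13, adjusted p = 0.372) was not called. PPP2R2A, a regulatory B subunit of protein phosphatase 2A, was lowest at -0.27 (SE 0.15, adjusted p = 0.623).

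Of 20 genes of tau modification and turnover 1 was called higher, 0 lower and 19 were not called, with a median of 0.01. At an unadjusted p under 0.05 by edgeR there were 3 of the 20 (15%), against 9.92% of all tested genes. The called gene was FKBP5, an Hsp90 co-chaperone that glucocorticoids induce. FKBP5 rose from 2.05 and 3.32 CPM in the controls to 11.1 and 18.7 CPM after sevoflurane. It was placed in the list with its rise in these libraries already known, so its count is no independent evidence. The log2 fold change was 2.49 (SE 0.38, adjusted p = 0.0259). The call was lost by limma-voom (adjusted p = 0.0596), without a filter (0.0532) and without control replicate 2 (0.0578), and over all alternatives adjusted p ran from 2.32e-09 to 0.0596. FKBP4, a related Hsp90 co-chaperone, was lowest in the list at -0.85 (SE 0.37, adjusted p = 0.496), with 8.59 and 18.4 CPM in the controls and 8.54 and 6.28 CPM in the exposed libraries.

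Of 30 genes listed as other microtubule-associated proteins 0 were called (4 at an unadjusted p under 0.05, and 0 by DESeq2 or limma-voom). The list held ENSA (0.24, not called), whose place among such proteins was not checked. The median was -0.09, with 22 values below 0 and 8 above. MAP7D3, a member of the MAP7 family, had 8.78 and 10.1 CPM in the controls and 4.44 and 3.73 CPM after sevoflurane. Its difference of -1.20 (SE 0.31, adjusted p = 0.19) was not called by the quasi-likelihood test but was by the likelihood ratio test (adjusted p = 0.037), and over all alternatives adjusted p reached 0.564. CAMSAP3, which binds microtubule minus ends, was highest at 0.35 (SE 0.17, adjusted p = 0.568). MAPRE3 was listed at 0 in all 4 libraries, which may reflect the unknown annotation or counting and is not read as absence of its message. Of 16 stathmins, collapsin response mediators and severing enzymes 0 were called (1 at an unadjusted p under 0.05, and 0 by DESeq2 or limma-voom), with a median of 0.05. FIGN, which encodes fidgetin of the severing enzyme family, had 18.6 and 16.3 CPM in the controls and 10.1 and 11.4 CPM after sevoflurane (-0.71, SE 0.23, adjusted p = 0.304). KATNAL2, a katanin-like gene, was highest at 0.79 (SE 0.70, adjusted p = 0.792). It had 7 and 6 reads in the controls and 11 and 19 after sevoflurane, so it passed the filter on low counts only through the group where it was higher, and its rank in the list is no result.

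**Figure D4:**
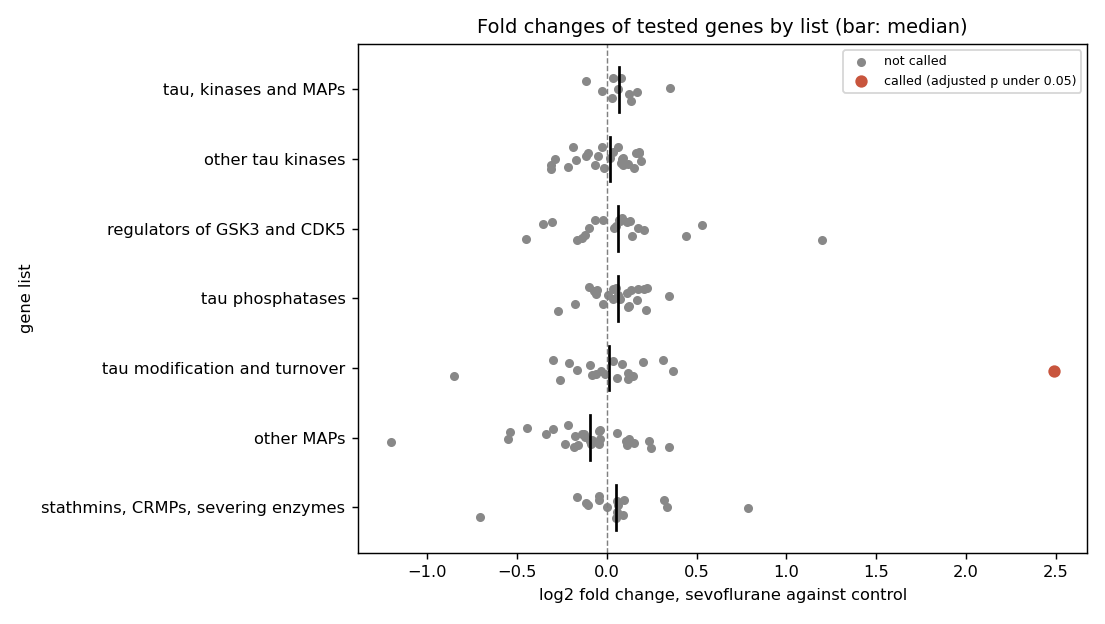
Log2 fold change of every tested gene (x axis, sevoflurane against control), in a row for the 10 genes and for each of 6 further lists; red points were called by edgeR, grey points were not, and bars are medians. FKBP5 at 2.49 is the red point, and the medians lie between -0.09 and 0.07.

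Some of the 10 genes overlap others in a RefSeq gene table of the macaque, and the sources used here do not give the strand setting of the counting, so shared reads cannot be told apart. Within MAPT lies STH, with 34 and 23 reads in the controls and 40 and 41 after sevoflurane. GSK3A overlaps DEDD2, which had 146 and 208 reads in the controls and 241 and 187 after sevoflurane. GSK3B overlaps MIR6529, with 10 to 23 reads a library, and MAP1B overlaps MIR4803, with 3 to 16. For CDK5, CDK5R1, MAP2 and STMN2 the table showed no overlapping gene. MAP1A and MAP4 overlapped only genes that the counts table did not list.

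Libraries held 7793757 reads (control replicate 3) to 11706115 reads (sevoflurane replicate 3). The 10 genes together took 0.724% and 0.774% of the control reads, and 0.812% and 0.8% of the sevoflurane reads, before TMM scaling. After it, their summed level was 7110 and 8002 CPM in the controls and 8123 and 7950 CPM after sevoflurane, so the groups overlapped. Control replicate 2 correlated less with control replicate 3 (Spearman 0.977 over tested genes) than with sevoflurane replicate 2 (0.978) or 3 (0.980), and the sevoflurane pair had 0.985. With 2 libraries against 2, the smallest two-sided exact permutation p is 0.333, so single values such as ratios were not tested.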

How the data were processed

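The authors deposited 1 table of raw read counts per gene, with a column for each of the 4 libraries. Per the submitters' processing notes the aligner was HISAT2. Its version, the counter, the build and annotation, strandedness and the handling of multi-mapped reads were not given in the sources used here. Per the labels' protocols, RNA was extracted with Trizol and made into Illumina libraries.

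Of 33618 genes, 8051 had no count, and edgeR's filter (10 counts at the median depth, 15 in total) left 17693. Counts were scaled by TMM, with factors from 0.969 to 1.02. Groups were compared with edgeR 4.0.16 (R 4.3.3) by its quasi-likelihood F test, two-sided, group being the only term, with Benjamini-Hochberg adjustment over all genes tested. Intervals are 95% intervals from the same fit. The steps were tested on simulated counts. Log2 deviations used a prior count of 2.

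The 10 genes and the lists were chosen with earlier results of these data known. The text names the 10 genes, for each list the called genes and the highest and lowest tested genes with a mean of at least 1 CPM, and the 3 genes nearest to MAPT; some single-gene results are left out here. List genes were matched by symbol or RefSeq gene number (from a RefSeq macaque gene table used for names and neighbours), and PTPA, CIP2A, OGA and MAP7 were not matched. Rows under the names PPP2R4, KIAA1524 and MGEA5 may be the first 3 of these under older symbols, which the tables used do not pair, and were not used. Alternatives were 3 other scalings, 2 other filters, DESeq2 1.42.0, limma-voom (limma 3.58.1), the likelihood ratio test, a replicate block and leaving out each library. No sequence is shown.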

Additional observations from a re-analysis of the deposited data

How the results depend on the processing

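None of the 10 genes was called under any of the 13 alternatives. With no replicate left out, signs held except with scaling to neuron markers, where GSK3B had -0.051 and CDK5 -0.019. With 1 library left out, log2 fold changes ranged from -0.22 to 0.39 for MAPT, -0.13 to 0.32 for GSK3A, -0.0093 to 0.067 for GSK3B, -0.13 to 0.22 for CDK5, -0.00091 to 0.25 for CDK5R1, -0.18 to 0.14 for MAP1A, -0.31 to 0.10 for MAP1B and -0.13 to 0.46 for STMN2. MAP2 (0.15 to 0.19) and MAP4 (0.23 to 0.49) kept their sign in each. Calls over all genes, 106 in the edgeR fit, were 60 with no filter, 274 by DESeq2, 441 by the likelihood ratio test, 511 with the replicate number as a block, and 145 to 283 with 1 library left out; the cause was not tested. Of the 106, 89.6% were lower, against 79.3% of 150 with scaling to neuron markers. This share also moved in fits that kept TMM or used other methods. It was 95% with no filter, 93.6% by limma-voom and 78.1% by DESeq2. By the likelihood ratio test it was 68.9%, and with the replicate block 66.7%. With the other scalings and the stricter filter it was 87.7% to 90.2%. Among tau modification and turnover genes the 1 call, FKBP5, became 0 with no filter and by limma-voom, and 0 to 1 with 1 library left out. Among other microtubule-associated proteins the 0 calls became 1 by the likelihood ratio test (MAP7D3), 1 with the replicate block (MTCL1), and 0 to 1 with 1 library left out. Among regulators of GSK3 and CDK5 they were 0 to 1 with 1 library left out. The labels do not say whether libraries with the same replicate number share more than that number. Deviations of same-numbered libraries correlated at 0.009 over genes, which does not settle this, and the block called 0 of the 10 genes. A group left with 1 library was assumed to vary like the other. MAPT, with 279 to 446 reads a library, had the largest SE of the 10.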

Other observations

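CDK5 has a pair of neuronal activators, p35 from CDK5R1 and p39 from CDK5R2. CDK5R2 had 319 and 531 CPM in control replicates 2 and 3, and 365 and 322 CPM in sevoflurane replicates 2 and 3. Control replicate 3 stood above the other libraries, and the difference was -0.31 (SE 0.21, adjusted p = 0.704). Without control replicate 2 it was -0.63 (SE 0.10, adjusted p = 0.0268). CDK5R2 was chosen after its values were seen, and that was the 1 call among 13 alternatives.

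MTUS1, a microtubule-associated protein, and MTCL1, a microtubule crosslinking protein, were also chosen after their values were seen. MTUS1 had -0.54 (SE 0.17, adjusted p = 0.28) and was called without control replicate 2 (-0.72, adjusted p = 0.0474). MTCL1 had -0.55 (SE 0.16, adjusted p = 0.239) and was called with the replicate number as a block (-0.56, adjusted p = 0.0406), although what the replicate numbers share is not known. Each of MTUS1 and MTCL1 was called in that 1 of 13 alternatives and in no other.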
